A study of Mus musculus with 18 samples.

Results

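The comparison described here was between Acly knock-out and wild-type natural killer (NK) cells from mouse spleen, sequenced after stimulation through NKG2D. Its members were the 6 libraries that the labels place in the NKG2D condition, 3 knock-out and 3 wild type, of 18 in the series. Wild-type mice were Rosa YFP/YFP Ncr1 CRE-ERT2. Knock-out mice carried those same alleles together with Acly fl/fl. Every mouse of both genotypes carried the tamoxifen-inducible Cre recombinase driven by Ncr1, a gene of NK cells and some innate lymphoid cells, and received a tamoxifen diet for 48 hours. YFP, which marks cells in which Cre was active, was used to sort YFP+ splenic NK cells 5 days after that diet ended. All 6 cultures received IL-15 (100 ng/ml, 72 hours) as priming and then plate-bound NKG2D (20 ug/ml, 6 hours). The condition closest to it, used below for comparison, was priming with no NKG2D step (3 knock-out and 3 wild-type libraries). The labels do not say whether the 3 libraries of a group came from separate animals. The p-values reflect only how far libraries of the same group lie from each other, over all 18 in the series. That spread may be in part technical.

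ATP citrate lyase, the product of Acly, splits citrate in the cytosol into oxaloacetate and acetyl-CoA, the building block of fatty acids and cholesterol and the acetyl donor for histones. NKG2D, encoded by Klrk1, is an activating receptor that signals through the adaptors DAP10 (Hcst) and, in mouse, DAP12 (Tyrobp). Activated NK cells secrete interferon gamma and chemokines and release perforin and granzymes from granules, and priming with IL-15 builds up those granules and the machinery for growth. The comparison asks how transcript levels of stimulated NK cells differ when Acly has been deleted.

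Levels are given as CPM, each library's counts scaled to a common total, for replicates 1, 2 and 3 in that order, and differences as log2 of knock-out over wild type ± standard error. A gene rose or fell where its adjusted p was under 0.05 in edgeR's quasi-likelihood test, with Benjamini-Hochberg adjustment over all 14864 genes tested. The 6 libraries held 19130482 to 34367538 counts. Acly itself (chromosome 11, 100476353 to 100528000, GRCm38) measured 193, 170 and 128 CPM in wild-type and 39.0, 28.2 and 41.9 CPM in knock-out libraries. Acly fell by 2.17 ± 0.20 on the log2 scale (adjusted p = 2.63e-06), to 0.222 of the wild-type level, with no overlap. All 10 NK cell markers were present in both genotypes. Of the markers of other cells some were at 0 in all 6 libraries (Ms4a1 and Pax5 of B cells, Cd8a and Cd8b1 of T cells, Lyz2, S100a8, S100a9 and Mpo of myeloid cells) and others were present, among them Ighm, Cd74, Cd3g, Trbc1 and Cd68, whose levels are given at the end. Replicate 1 of the wild type and replicate 2 of the knock-out had Xist and none of 4 Y-linked genes, so each genotype held 1 female and 2 male patterns. Each genotype therefore came from at least 2 animals.

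One knock-out library stood apart. Replicate 1 differed from knock-out replicates 2 and 3 by a median of 0.317 and 0.28 on the log2 scale, against 0.13 between those 2 and 0.132 to 0.222 among the wild-type libraries. Of 8251 genes with a mean log2 level of at least 3, 203 were at least 2-fold lower in that library than in both other knock-outs, and 10 at least 2-fold higher. Among called genes, that library was at least 2-fold below both other knock-outs in 65 of the 1300 that rose and in 1 of the 1408 that fell, and at least 2-fold above both in 1 and 5. Those 203 genes were also split elsewhere: primed wild-type libraries had medians of -0.87, -0.9 and 0.83 relative to the mean of all 18, primed knock-outs 0.63, 0.29 and -0.23, and fresh wild types 0.66 to 0.77. The gap between the other knock-outs and replicate 1 (their mean minus replicate 1) followed transcript GC content negatively (Spearman -0.6 across 8246 genes, which are not independent). Transcripts richer in GC thus tended to read relatively higher in replicate 1. The GC content of the 203 genes lower in that library was not examined separately. The genotype difference did not follow GC (0.02) but followed transcript length (0.31). Of genes whose longest transcript was at most 1000 bases, 36.6% fell and 1.18% rose, against 4.85% and 20.6% of those over 8000 bases. Levels relative to each gene's mean over the NKG2D libraries followed length negatively in the 3 wild-type libraries (-0.13, -0.25 and -0.37). They followed it positively in the 3 knock-out libraries (0.05, 0.24 and 0.39). That mean spans both genotypes, so the opposite signs largely restate the genotype correlation with length and are not separate observations. What part GC and length play in the results was not tested.

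**Figure D1:**
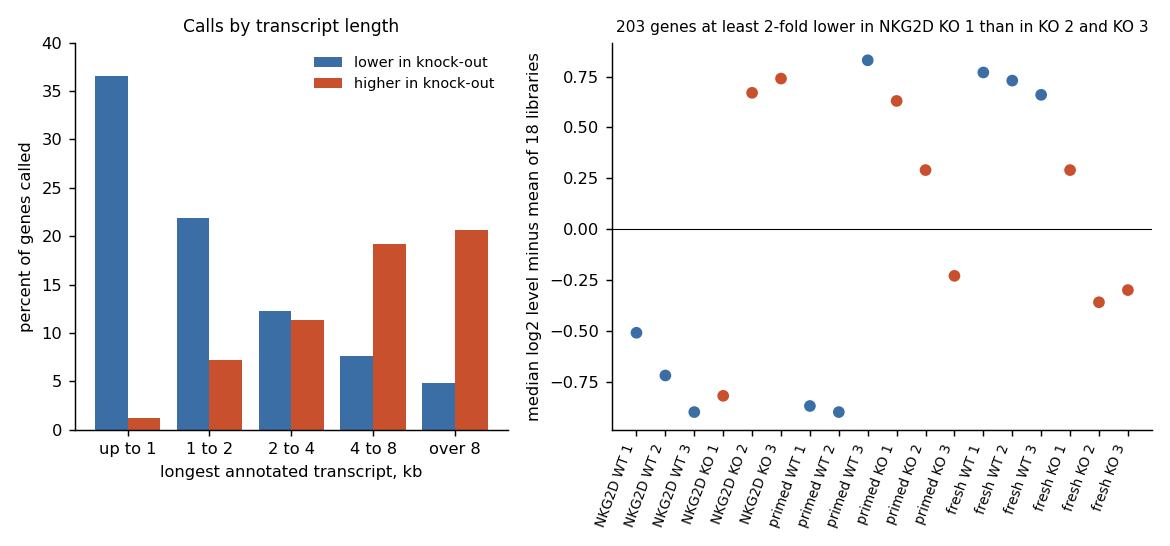
Left, percent of genes called lower (blue) or higher (red) in knock-out cells after NKG2D, by length of the longest annotated transcript; lower calls go from 36.6% to 4.85% and higher calls from 1.18% to 20.6% with length. Right, median log2 level, relative to the mean of 18 libraries, of the 203 genes at least 2-fold lower in knock-out replicate 1 than in both other knock-outs after NKG2D (red, knock-out; blue, wild type); after NKG2D the 3 wild types sit at -0.51, -0.72 and -0.9 and the knock-outs at -0.82, 0.67 and 0.74, while wild-type libraries of other conditions sit at both ends (primed -0.87, -0.9 and 0.83, fresh 0.66 to 0.77).

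In all, 1300 genes rose and 1408 fell in the knock-out cells (18.2% of those tested were called, 8.75% higher and 9.47% lower). The change was at least 2-fold for 336 rises and 412 falls (5.03% of genes) and at least 4-fold for 85 and 121. Among the called genes, 2592 had no overlap between the 3 knock-out and 3 wild-type libraries, which was so for 34.8% of all genes tested. Leaving out 1 of the 6 libraries ended the call of 29 of the genes named in the text, among them Tnf, Lif, Gzmf, Gzmg, Nr4a1, Relb, Klrc1, Nt5e, Cxcr3, Cdkn1b, Tob1, Myc, Rrm2, Sqle, Acss2, Cd74, Cd200r1 and 10 of the 15 largest rises. The authors' deposited table of this comparison lists 3137 genes higher and 3040 lower at its adjusted p under 0.05, and 2651 of the 2708 genes called here are among them, all in the same direction. Scaling bears on the balance of directions. With no scaling factor beyond library totals the median of all genes moved from 0.03 to 0.15 and rises made up 66.4% of calls, against 48% here and 35.6% with upper-quartile factors.

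**Figure D2:**
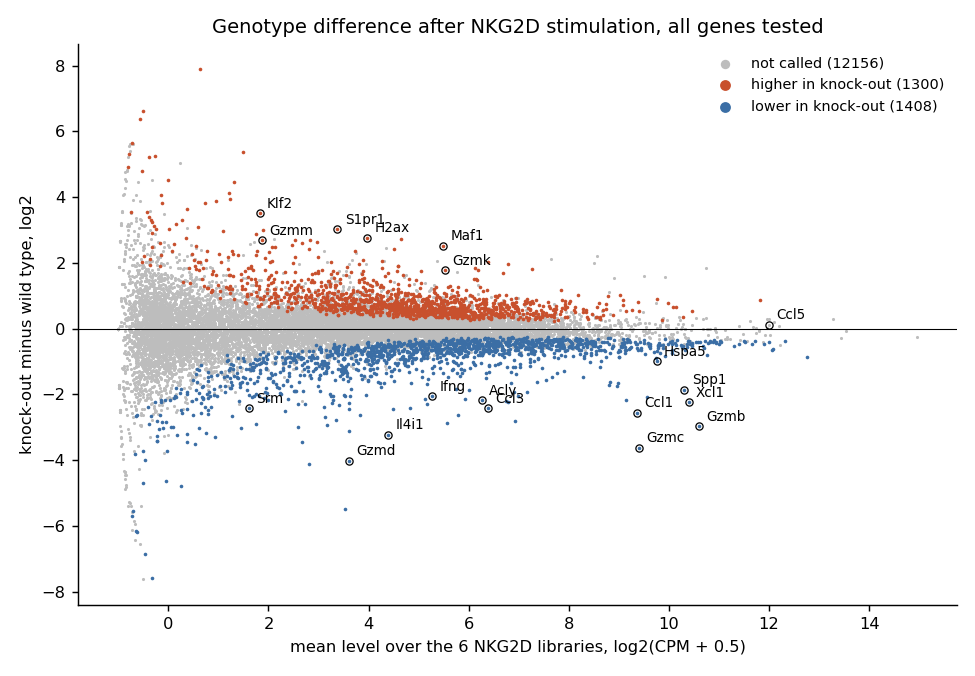
Genotype difference (log2, knock-out minus wild type) against mean level over the 6 NKG2D libraries (log2 of CPM + 0.5) for every gene tested; red, 1300 genes higher, blue, 1408 lower, grey, not called. The granzymes Gzmb, Gzmc and Gzmd and the chemokines Ccl3, Ccl1 and Xcl1 lie below -2, Klf2 and S1pr1 above 3, and Ccl5 at 0.11.

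The 15 largest falls among well-expressed genes were Gzmd, Gzmc, Il4i1, Penk, Gzmb, Wdfy1, Serpinb9b, Cish, Ccl9, Ccl1, Ceacam1, Havcr2, Ccl3, Cd63 and Lilrb4a, from -4.02 to -2.39. In none of them did knock-out replicate 1 stand 2-fold from both of the others. Wdfy1 had 85.3, 155 and 144 CPM in wild-type and 17.2, 16.5 and 18.5 CPM in knock-out cells, a difference of -2.88 ± 0.32. Cd63, a tetraspanin of granule and endosome membranes, went from 59.2, 69.3 and 65.8 CPM to 12.4, 14.7 and 9.21 CPM (-2.42 ± 0.28). In these 2 genes every knock-out library lay at less than 1 part in 4 of every wild-type library. Cish, the feedback inhibitor of IL-15 signalling, was uneven in wild-type cells, with 53.4, 14.8 and 14.3 CPM, and stood at 4.40, 4.16 and 3.55 CPM in knock-out cells (-2.77 ± 0.40).

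The 15 largest rises were of another kind: 11 of them were the genes split within the knock-out group. They were H2ax, Hmgn1, Maf1, Dut, Creg1, Stub1, Fam177a, Mcm6, Rfc5, Hells and Fam210b. Maf1, a repressor of RNA polymerase III, measured 22.2, 20.1 and 20.7 CPM in wild-type and 29.4, 162 and 171 CPM in knock-out libraries (2.52 ± 0.73, adjusted p = 0.0231). Without knock-out replicate 1 the difference of Maf1 was 2.98. Hmgn1, a nucleosome-binding protein, read 12.1, 11.7 and 8.76 CPM against 16.4, 95.9 and 104 CPM. In both genes replicate 1 lay near the wild type. The other 4 rose in every knock-out library. S1pr1, the receptor that leads lymphocytes out of tissue, had 2.68, 3.62 and 3.98 CPM in wild-type and 33.6, 21.8 and 27.6 CPM in knock-out cells (3.02 ± 0.38). Mturn went from 5.80, 7.20 and 7.63 CPM to 28.9, 29.99 and 28.9 CPM (2.09 ± 0.48). Itgb7, an integrin beta chain, went from 35.2, 42.0 and 48.6 CPM to 115, 150 and 251 CPM (2.04 ± 0.43). Fn3krp was the fourth, at 2.04 ± 0.34.

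Some secreted mediators fell. Of 14 cytokine genes tested 5 fell and none rose, with a median difference of -0.65, and of 9 chemokine genes 5 fell and none rose, with a median of -2.17. Across all genes tested 9.47% fell and the median was 0.03. Ifng, the interferon gamma gene, stood at 88.2, 65.9 and 81.3 CPM in wild-type and 20.6, 20.1 and 15.5 CPM in knock-out libraries (-2.06 ± 0.15). Spp1, which encodes osteopontin, fell from 2856, 2228 and 2222 CPM to 733, 739 and 543 CPM (-1.86 ± 0.24, adjusted p = 7.24e-05). Ccl1, a chemokine made by activated lymphocytes, fell from 1751, 1565 and 1608 CPM to 364, 294 and 175 CPM (-2.56 ± 0.22, adjusted p = 2.07e-06). For these 3 genes each knock-out library was below each wild-type library by at least 3-fold. Csf2 and Tnf also fell, by 3.47 ± 0.50 and 1.47 ± 0.44. Lif was the fifth cytokine called, with 0, 0.763 and 0.14 CPM in wild-type libraries and 0 in the 3 knock-out libraries, too low for a fold. Flt3l, Osm, Il16 and Ltb were not called.

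Neighbouring chemokine genes on chromosome 11 did not move alike. Ccl5 (83525778 to 83530518), the chemokine RANTES, had 4007, 3878 and 3966 CPM in wild-type and 4392, 5081 and 3336 CPM in knock-out cells. Its difference of 0.11 ± 0.15 (adjusted p = 0.657) was within the spread of the libraries. Ccl9 (83572919 to 83578636) fell from 49.3, 29.8 and 25.3 CPM to 6.12, 6.32 and 4.32 CPM (-2.64 ± 0.37). Ccl3 (83647844 to 83649355) fell by 2.42 ± 0.22, and Ccl4 (83662584 to 83664683) fell by 2.17 ± 0.22. Ccl6, between Ccl9 and Ccl3, was near 1 CPM in wild-type cells and was not called. Without knock-out replicate 1, 4 cytokine and 6 chemokine genes fell.

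**Figure D3:**
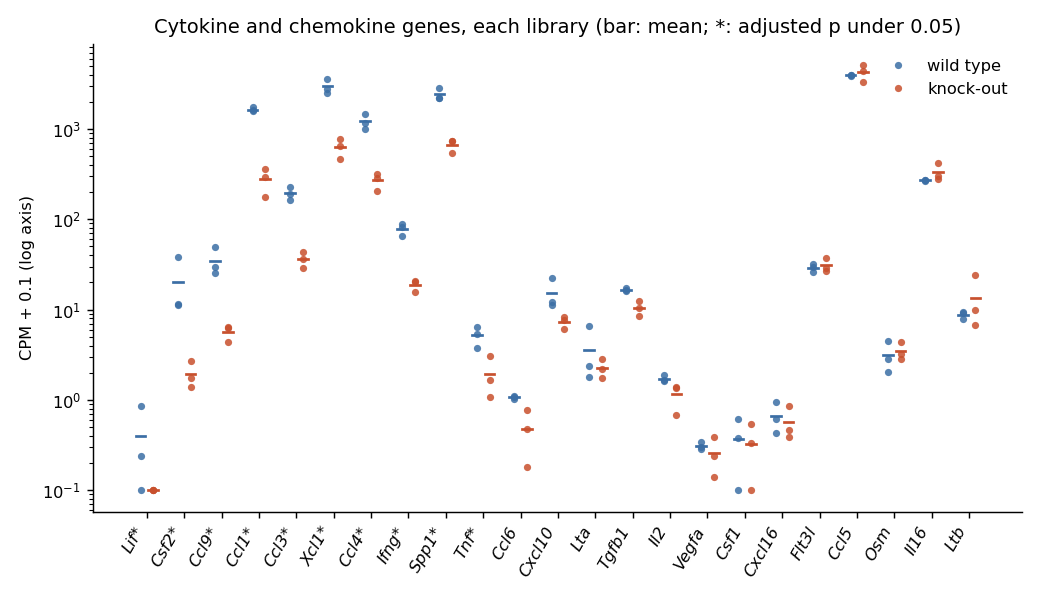
CPM + 0.1 on a log axis in each library (points) and the group mean (bar) for the 23 cytokine and chemokine genes tested, wild type blue and knock-out red, ordered by genotype difference; asterisks mark adjusted p under 0.05. The called genes lie at the left, and Ccl5 overlaps between genotypes.

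The bases before the start of Ccl9 are shown because it is the called member of these lists with the smallest p whose promoter held the motif searched. That motif is a loose form of the AP-1 element, which FOS and JUN factors bind. It was TGANTCA, where N is any base (A in Ccl9), on both strands of the 250 bases before the start. It was present for 7.82% of 27025 genes, 4 of the 19 tested cytokine and chemokine genes with a promoter in the RefSeq table, and 2 of the 9 called ones. The sequence is from RefSeq (GRCm38.p6), chr11:83578637-83578886, minus strand, with the match in capitals:
Ccl9: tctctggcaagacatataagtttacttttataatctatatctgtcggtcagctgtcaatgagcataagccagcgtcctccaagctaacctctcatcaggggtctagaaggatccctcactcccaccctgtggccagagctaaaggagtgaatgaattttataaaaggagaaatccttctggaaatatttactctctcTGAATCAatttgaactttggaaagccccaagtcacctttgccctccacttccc
The match starts 53 bases before the transcription start. It is a match of letters, and no binding was measured.

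Granule genes fell more often than they rose, and the granzyme loci differed. Of 24 genes of granule proteins and death ligands, 15 fell and 3 rose (median -0.64). On chromosome 14, 6 granzyme genes in the stretch from Gzme to Gzmb (56117626 to 56262260) fell. Gzmc had 2877, 2249 and 2101 CPM in wild-type and 236, 170 and 180 CPM in knock-out cells (-3.62 ± 0.32, adjusted p = 2.23e-06). Gzmd went from 76.6, 41.4 and 26.9 CPM to 3.77, 3.27 and 1.88 CPM (-4.02 ± 0.43). Gzme fell by 4.11 ± 0.66 and Gzmf fell by 3.03 ± 0.78, while Gzmg stayed below 1 CPM in every library. These granzymes are close copies of each other, so reads can be shared among them. Cma1, a chymase gene on the same chromosome (55941451 to 55944675), moved the other way, from 2.51, 2.34 and 2.81 CPM to 19.3, 18.4 and 12.2 CPM (2.70 ± 0.23, adjusted p = 1.68e-06).

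Gzma and Gzmk, adjacent on chromosome 13, differed in direction too. Gzma fell from 5530, 4982 and 5616 CPM to 3355, 4128 and 3064 CPM (-0.61 ± 0.15), whereas Gzmk rose from 15.04, 27.4 and 33.6 CPM to 84.5, 90.7 and 84.4 CPM (1.77 ± 0.24). Prf1, the pore-forming perforin, fell by 1.65 ± 0.20. Among genes that protect the cell from its own granzymes or package them, Serpinb9, an inhibitor of granzyme B, fell from 432, 288 and 261 CPM to 113, 104 and 111 CPM (-1.58 ± 0.18). Serpinb6b fell by 1.61 ± 0.14, Cst7, which encodes cystatin F, by 1.18 ± 0.15, and Srgn, the granule proteoglycan serglycin, by 0.66 ± 0.11. The death ligand Fasl fell by 0.46 ± 0.10, and Tnfsf10 (TRAIL) was not called at 0.18 ± 0.27. Genes of the machinery that moves and fuses granules read differently: of 19 tested, 2 rose and none fell (median 0.02; 3 and 2 without knock-out replicate 1). Rab27a differed by 0.15 ± 0.10, Unc13d by 0.15 ± 0.20 and Stxbp2 by -0.12 ± 0.12, each with overlapping libraries.

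The receptor and its first signalling steps showed few calls. Of 27 genes of NKG2D and its proximal signalling, 2 rose and 3 fell (median 0.05), or 18.5% against 18.2% of all genes, so this share was near the background. Without knock-out replicate 1 the counts were 4 and 5. Klrk1, which encodes NKG2D, measured 859, 882 and 965 CPM in wild-type and 994, 1170 and 1104 CPM in knock-out cells (0.27 ± 0.09, adjusted p = 0.0507). Whether Klrk1 was called depended on the setting. It was called higher with DESeq2 (adjusted p = 0.0282) and in edgeR without knock-out replicate 1 (0.0194), among others, and stayed uncalled in the rest. Lcp2, Vav1 and Lck, which carry the signal on, differed by 0.00 ± 0.11, 0.02 ± 0.10 and 0.16 ± 0.14. Tyrobp fell by 0.73 ± 0.18. Syk, the kinase that binds DAP12, rose from 34.5, 30.2 and 31.7 CPM to 71.5, 48.7 and 57.0 CPM (0.88 ± 0.14, adjusted p = 0.000338).

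Among genes that lymphocytes switch on within hours of receptor signalling, some families fell and others did not. Of 19 EGR, NR4A and other immediate-early genes, 8 fell and 1 rose (median -0.68, and -0.10 without knock-out replicate 1, when the counts were again 8 and 1). Egr2, a zinc-finger factor, had 220, 196 and 173 CPM in wild-type and 101.5, 84.2 and 75.3 CPM in knock-out cells (-1.18 ± 0.14, adjusted p = 3.97e-05). Nr4a1, an orphan nuclear receptor read out in antigen-receptor reporters, fell from 42.6, 38.2 and 32.2 CPM to 24.8, 16.3 and 14.9 CPM (-1.01 ± 0.27). Gadd45b fell by 1.52 ± 0.25 and Gadd45g by 1.15 ± 0.18. Btg2, Zfp36 and Klf6 differed by 0.09 ± 0.16, 0.09 ± 0.17 and 0.23 ± 0.10 and were not called. Of 13 AP-1 genes, 3 fell and none rose (median -0.11; 2 fell without knock-out replicate 1, with a median of -0.36). The share called, 23.1%, was near the 18.2% of all genes. Jun differed by -0.40 ± 0.23 and Batf by -0.11 ± 0.19, both uncalled, and Junb was split, at 15.9, 11.7 and 9.36 CPM against 7.72, 31.3 and 37.6 CPM.

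Feedback and transcription factors downstream fell in part. Of 20 NF-kappaB and NFAT pathway genes, 7 fell and 2 rose (median -0.39). Irf4, a factor induced in proportion to receptor signal in T cells, fell from 28.0, 15.9 and 15.6 CPM to 5.83, 3.51 and 3.91 CPM (-2.17 ± 0.44). The inhibitors Nfkbiz and Tnfaip3 fell by 1.30 ± 0.25 and 1.12 ± 0.19, and the subunits Rel and Relb by 0.80 ± 0.14 and 0.67 ± 0.17. The 2 that rose were Nfatc1 (0.54 ± 0.13) and Nfatc2 (0.67 ± 0.15). Dusp6, a phosphatase induced by and acting on ERK, fell by 1.44 ± 0.17, 1 of 4 falls among 11 ERK feedback genes (none rose, median -0.22, and -0.51 without knock-out replicate 1).

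Receptors for other signals were mixed. Of 19 cytokine receptor genes 6 fell and 3 rose (median -0.31); without knock-out replicate 1 these were 10 and 4. Il2ra, the high-affinity IL-2 receptor chain, fell from 183, 113 and 93.6 CPM to 35.9, 29.6 and 23.1 CPM (-2.14 ± 0.48). Il21r fell by 1.33 ± 0.26 and Il12rb2 by 0.90 ± 0.16, and Il2rb, the chain that binds IL-15, was not called (-0.31 ± 0.15, adjusted p = 0.159). Both chains of the IL-18 receptor rose: Il18r1 from 46.6, 56.8 and 61.8 CPM to 92.4, 90.1 and 89.3 CPM (0.72 ± 0.12) and Il18rap by 0.60 ± 0.12. Stat5a, which carries IL-2 and IL-15 signals, fell from 103, 87.3 and 60.3 CPM to 49.9, 35.3 and 36.9 CPM (-1.04 ± 0.17), 1 of 5 falls and 2 rises among 18 JAK, STAT and SOCS genes (median -0.03).

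Costimulatory and checkpoint receptors fell in 10 of 23 cases and rose in 1 (median -0.56). Havcr2 (TIM-3) had 35.3, 24.9 and 22.5 CPM in wild-type and 6.96, 4.87 and 3.38 CPM in knock-out cells (-2.44 ± 0.28). Ceacam1 fell by 2.45 ± 0.41, the activation marker Cd69 by 1.34 ± 0.15, Cd160 by 1.34 ± 0.19 and Cd96 by 0.56 ± 0.11. Tigit (-0.30 ± 0.12) and Icos (-0.27 ± 0.14) were not called, and the 1 rise was Nt5e, the ectonucleotidase CD73 (0.80 ± 0.21). Of 27 NK receptors and adaptors, 8 fell and 3 rose (median -0.20). Fcgr2b, the inhibitory Fc receptor, rose from 1.46, 1.14 and 1.87 CPM to 8.98, 8.19 and 7.95 CPM (2.49 ± 0.25), while Fcgr3, the activating one, was level at 0.02 ± 0.10. Klra5 fell by 1.86 ± 0.18 and Klrd1, the CD94 chain, by 0.71 ± 0.16, while its partner Klrc1 (NKG2A) rose by 0.52 ± 0.13.

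Some genes of tissue exit, homing and quiescence rose, while most members of each list were not called. Of 23 genes for egress, chemokine receptors and adhesion, 10 rose and none fell (median 0.39), against 8.75% of all genes that rose. Klf2, the factor that drives S1pr1 in T cells, was at 0.828, 0.525 and 1.08 CPM against 10.5, 8.33 and 9.05 CPM (3.51 ± 0.22). S1pr5, an exit receptor of NK cells, rose by 1.37 ± 0.25, Cxcr4 by 1.33 ± 0.28, Cxcr3 by 0.90 ± 0.23 and Itgam (CD11b) by 0.85 ± 0.16. In all of these the libraries did not overlap, while Ccr2 and Itgal were not called. Of 30 quiescence genes and FOXO targets, 11 rose and 1 fell (median 0.50). S1pr1 and Tcf7 are also in the lists beside it, and 3 of the 30 (Pik3ip1, Cdkn1b and Tob1) were split by knock-out replicate 1. Tsc22d3, a FOXO and glucocorticoid target, rose from 90.7, 95.6 and 93.4 CPM to 164, 170 and 154 CPM (0.80 ± 0.10). Of 29 NK transcription factors, 8 rose and 1 fell (median 0.18). Tcf7 and Lef1, factors of less differentiated NK cells, rose by 0.81 ± 0.16 and 0.61 ± 0.11, and Klf3 by 1.02 ± 0.17, while Tbx21, Id2 and Zeb2 were not called.

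The machinery that builds ribosomes had the largest share of falls among the lists of 10 or more tested genes. Of 52 ribosome biogenesis genes, 40 fell and none rose (median -0.76), and 44 had every knock-out library below every wild-type library, as 17.1% of all genes did. Without knock-out replicate 1 the falls were 43, and among the 4 libraries of male pattern 26. Ltv1, needed to export and mature the small subunit, had 23.4, 20.9 and 23.6 CPM in wild-type and 8.51, 7.86 and 9.13 CPM in knock-out cells (-1.41 ± 0.13, adjusted p = 2.32e-06). Pno1 fell by 1.31 ± 0.18, Mrto4 by 1.21 ± 0.13, Nhp2 of the H/ACA complex by 1.11 ± 0.11 and Fbl, the methylase fibrillarin, by 1.03 ± 0.13. The RNA polymerase I subunits Polr1a, Polr1b and Polr1e differed by -0.74 ± 0.17, -0.92 ± 0.21 and -0.80 ± 0.13, all called. Npm1 (-0.21 ± 0.10) and Nop2 (-0.42 ± 0.15) did not pass. Myc, which drives this programme in many cells, fell from 29.8, 19.5 and 18.9 CPM to 18.8, 8.65 and 14.3 CPM (-0.71 ± 0.22, adjusted p = 0.0349). Median transcript length of the list was 3050 bases. No called member with a promoter in the RefSeq table held the E-box CACGTG in its last 250 bases (0 of 37), where 6.86% of all genes do.

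Of 78 cytosolic ribosomal protein genes, 56 fell and none rose (median -0.45), and without knock-out replicate 1, 67 fell and 2 rose. Rpl22 at -0.79 ± 0.14 was the lowest called. Rps2 and Rpl13 were split, Rps2 at 213, 201 and 204 CPM against 208, 1027 and 1244 CPM. These transcripts are short, with a median of 1076 bases. Among the 34 with at most 1000 bases, 79.4% fell (median -0.45). Of 507 other genes that short, outside the 4 lists of this paragraph, 31.6% fell (median -0.35). The other 3 were nuclear genes of the respiratory chain (38 of 75 fell, none rose, median -0.33), mitochondrial ribosomal proteins (27 of 79 fell, 2 rose, median -0.28) and the proteasome (23 of 41 fell, none rose, median -0.35). Cycs, the electron carrier cytochrome c, fell by 0.96, Psme2 by 0.79 ± 0.10 and Psmd6 by 0.64 ± 0.08. Of 34 respiratory chain genes with at most 1000 bases, 58.8% fell (median -0.42). Of 16 mitochondrial ribosomal protein genes that short 43.8% fell (median -0.26), and 4 of 4 proteasome genes did (median -0.64). Ribosomal protein genes have many pseudogene copies, which can share their reads.

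Translation and amino acid supply fell in part. Of 39 translation factors 15 fell and 2 rose (median -0.31). Eif4e, the cap-binding protein, went from 136, 114 and 131 CPM to 71.5, 79.1 and 70.7 CPM (-0.78 ± 0.09) and the helicase Eif4a1 from 446, 411 and 401 CPM to 252, 241 and 265 CPM (-0.73 ± 0.09). Eif4ebp2, a repressor of Eif4e's product, rose by 0.52 ± 0.12. Of 20 aminoacyl-tRNA synthetases 10 fell and none rose (median -0.31). Tfrc, the transferrin receptor, fell from 49.5, 31.7 and 25.8 CPM to 12.1, 13.8 and 13.8 CPM (-1.43 ± 0.20), 1 of 2 falls and 1 rise among 15 amino acid transporters and iron uptake genes (4 falls and 1 rise without knock-out replicate 1). In that list 20.0% were called, near the 18.2% of all genes. Of 13 polyamine and methionine cycle genes 4 fell and none rose (median -0.20): Odc1, the first enzyme of polyamine synthesis, fell by 1.10 ± 0.16 and Srm, spermidine synthase, by 2.43 ± 0.41.

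Nucleotide synthesis genes moved in both directions. Of 32 genes 12 fell and 3 rose (median -0.24). The folate enzymes Mthfd1 and Shmt1 fell, Mthfd1 from 48.7, 41.3 and 31.7 CPM to 21.2, 18.6 and 15.5 CPM (-1.14 ± 0.14) and Shmt1 by 1.89 ± 0.24, while Mthfd2 was level (0.05 ± 0.14). The 3 that rose make deoxynucleotides: Rrm1 went from 264, 271 and 263 CPM to 392, 402 and 399 CPM (0.58 ± 0.09), Rrm2 rose by 0.57 ± 0.15 and Tyms by 0.56 ± 0.13. Of 53 cell cycle genes 16 rose and 2 fell (median 0.30), and without knock-out replicate 1 the counts were the same. E2f2 went from 11.96, 15.5 and 15.5 CPM to 48.3, 39.4 and 45.8 CPM (1.64 ± 0.15, adjusted p = 2.63e-06), E2f7 and E2f8 rose by 1.34 ± 0.23 and 1.08 ± 0.14, Ccne2 by 1.40 ± 0.22 and the helicase subunit Mcm7 by 0.87 ± 0.11. The 2 falls were the G1 kinase Cdk6 (-1.18 ± 0.14) and its partner Ccnd2 (-0.83 ± 0.15). The mitotic genes Ccnb1, Cdk1 and Plk1 were not called.

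Some folding genes of the endoplasmic reticulum and the cytosol fell. Hspa5, the reticulum chaperone BiP, measured 1373, 1229 and 1065 CPM in wild-type and 615, 618 and 605 CPM in knock-out cells (-0.996 ± 0.09, adjusted p = 2.76e-06). Pdia6 fell by 1.16 ± 0.12 and Calr by 1.02 ± 0.12, among 8 falls and 1 rise of 18 genes (median -0.14, and -0.02 without knock-out replicate 1, with 8 falls and 2 rises). Pdia3 was split, at 137, 103 and 113 CPM against 72.3, 702 and 748 CPM. Of 21 chaperone genes 12 fell and 1 rose (median -0.46), with the mitochondrial pair Hspe1 at -1.02 ± 0.13 and Hspd1 at -0.66 ± 0.09. Atf4 and Ddit3 of the integrated stress response were not called, and the 1 fall among 13 genes of that list was Asns (-1.31 ± 0.24).

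Sterol synthesis genes rose in 15 of 27 cases, the only list of 10 or more tested genes in which over 50% of members did. None of the 27 genes for cholesterol synthesis and uptake fell (median 0.56; the rises were 14 without knock-out replicate 1, 10 among the libraries of male pattern). Fdps, farnesyl diphosphate synthase, had 130, 114 and 115 CPM in wild-type and 237, 218 and 199 CPM in knock-out cells (0.86 ± 0.12). Idi1 rose by 0.99 ± 0.13 and Sqle by 0.62 ± 0.18. Insig1 was split, at 51.4, 52.2 and 48.5 CPM against 57.0, 174 and 134 CPM. Abca1, the sterol exporter, fell by 2.47 ± 0.54 from levels below 2 CPM. Its list, of sterol export genes, was split, with 2 falls and 2 rises among 9 tested (median 0.25).

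The promoter of Hmgcs1, which makes HMG-CoA, is shown as the called member with the smallest p that held a sterol element. The motif was TCACNCCAC on both strands of the 250 bases before the start, present for 1.22% of 27025 genes and 1 of 19 genes of this list with a promoter in the table. The sequence is from RefSeq (GRCm38.p6), chr13:119690101-119690350, plus strand, with the match in capitals:
Hmgcs1: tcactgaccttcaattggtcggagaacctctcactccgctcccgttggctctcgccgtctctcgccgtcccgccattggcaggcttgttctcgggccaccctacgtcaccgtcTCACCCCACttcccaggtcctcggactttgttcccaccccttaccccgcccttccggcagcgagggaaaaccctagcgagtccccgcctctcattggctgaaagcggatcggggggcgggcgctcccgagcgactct
The match starts 137 bases before the transcription start, and no binding was measured. Hmgcs1 rose from 126, 107 and 99.0 CPM to 157, 160 and 173 CPM (0.56 ± 0.13).

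Of 20 genes of fatty acid synthesis and desaturation 5 rose and 1 fell (median 0.13; 4 and 2 without knock-out replicate 1). Fads2, a desaturase, went from 4.68, 5.29 and 5.197 CPM to 20.7, 12.8 and 14.8 CPM (1.67 ± 0.34), Elovl7 rose by 1.77 ± 0.23 and Elovl6 by 0.78 ± 0.14. Acaca, the next enzyme after ATP citrate lyase, differed by -0.57 ± 0.19 and Fasn by 0.56 ± 0.20, both uncalled with overlapping libraries. Whether either was called depended on the setting. Acaca was called lower with DESeq2 (adjusted p = 0.0262) and in edgeR with upper-quartile factors (0.0238), among others. Fasn was called higher with DESeq2 (adjusted p = 0.0452) and in edgeR with no scaling factors (0.0218), among others. Each stayed uncalled in the remaining settings. Acss2, which makes acetyl-CoA from acetate, rose by 1.49 ± 0.39, with 9.45, 10.1 and 10.8 CPM against 15.4, 39.2 and 30.9 CPM and replicate 1 the lowest. Of 21 glycolysis genes 12 fell and none rose (median -0.53; 16 without knock-out replicate 1). Pgk1 went from 429, 566 and 578 CPM to 213, 172 and 177 CPM (-1.49 ± 0.14), Hk2 fell by 1.69 ± 0.25 and Ldha by 0.90 ± 0.17, while Pfkl (0.14 ± 0.19) and Slc2a1 (-0.33 ± 0.17) were not called.

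Survival, chromatin and interferon genes were mixed. Of 25 BCL2 family and apoptosis genes 6 rose and 5 fell (median -0.07). Bcl2a1b fell from 249, 205 and 239 CPM to 50.1, 54.7 and 44.1 CPM (-2.22 ± 0.16); Bcl2a1d, a near copy that can share its reads, fell by 2.23 ± 0.25. Casp9, Mdm2 and Bax rose by 0.80 ± 0.14, 0.94 ± 0.21 and 0.49 ± 0.12. Of 19 acetyltransferase and bromodomain genes 4 rose and none fell (median 0.23), Brd3 by 0.83 ± 0.11. That is 21.1% called, near the 18.2% of all genes. Dnmt1, the maintenance DNA methylase, rose by 0.80 ± 0.11 and Dnmt3a, a de novo one, fell by 0.80 ± 0.11, among 8 rises and 1 fall of 26 genes of histone and DNA methylation (median 0.26). Of 36 interferon-stimulated genes 9 fell and 2 rose (median -0.37), and without knock-out replicate 1 and among the male-pattern libraries 8 and 3 fell. Ifi27l2a fell from 294, 205 and 211 CPM to 75.4, 45.8 and 66.5 CPM (-1.92 ± 0.29). Isg15 was at 57.5, 41.2 and 23.8 CPM against 17.3, 7.63 and 15.9 CPM (-1.59 ± 0.37). Of 29 lysosome and autophagy genes 1 fell and none rose (median -0.03). In the actin and tubulin list 8 of 25 fell and 2 rose (median -0.26). Without knock-out replicate 1, 4 lysosome genes and 13 actin and tubulin genes fell, and 1 and 3 rose. Capg, an actin-capping protein, fell by 1.75 ± 0.16, and Tubb5 rose from 2631, 2707 and 2662 CPM to 4756, 5154 and 4653 CPM (0.86 ± 0.09).

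**Figure D4:**
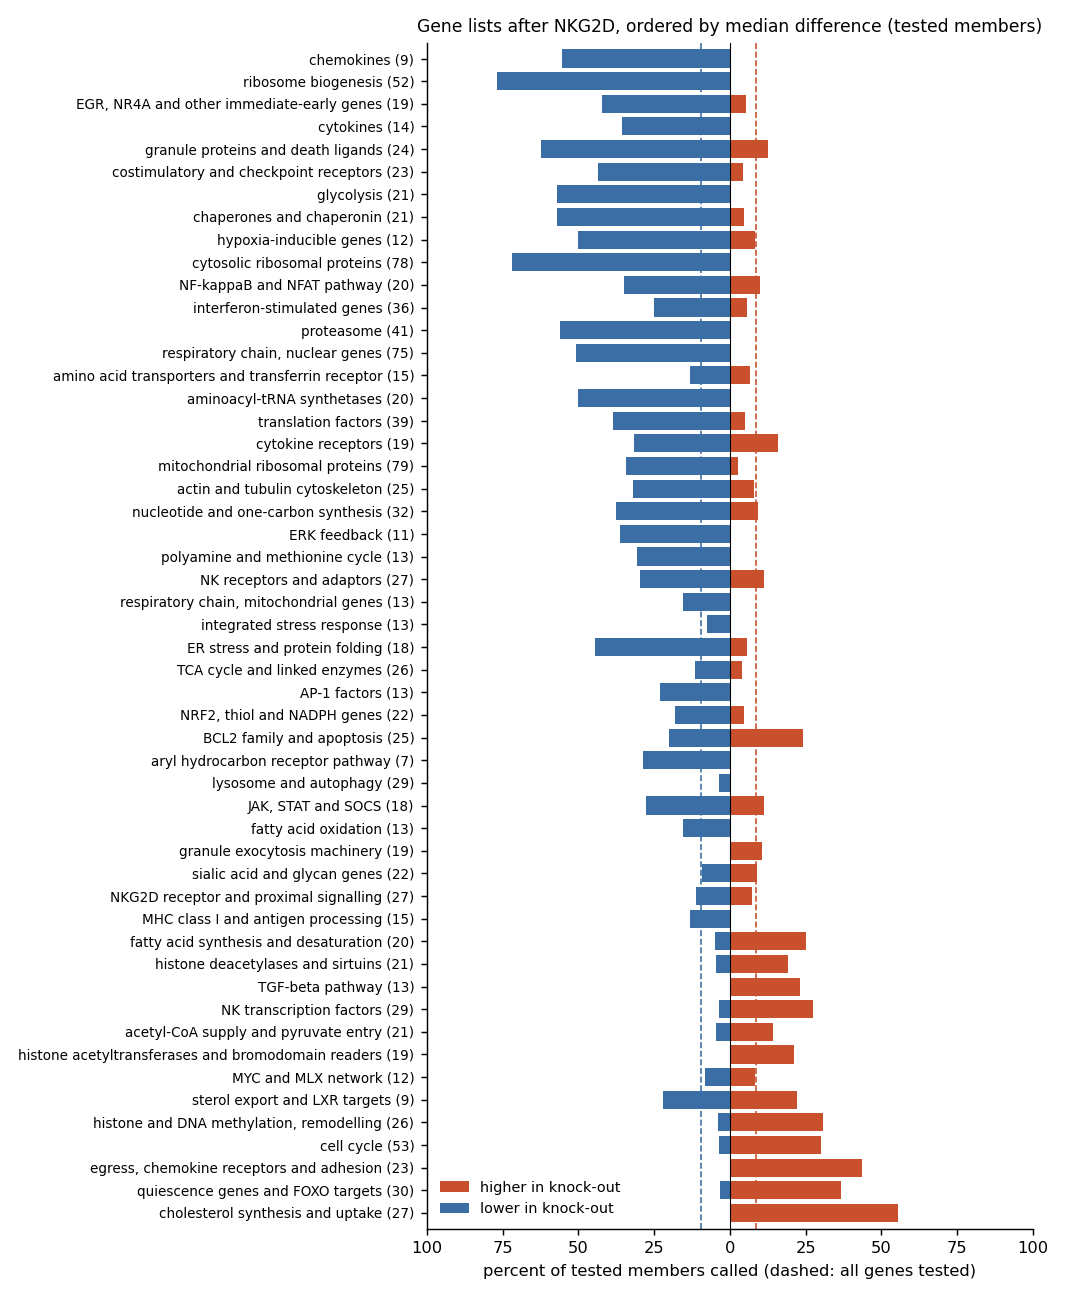
Percent of tested members called higher (red, right) or lower (blue, left) in knock-out cells after NKG2D for each gene list with at least 7 tested members, ordered by median difference; the number tested is in brackets and the dashed lines are the shares of all genes tested, 8.75% and 9.47%. Chemokines and ribosome biogenesis are at the top, with 5 of 9 and 40 of 52 lower, and cholesterol synthesis at the bottom, with 15 of 27 higher.

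Whether the genotype difference after NKG2D differed from that in cells only primed was tested in the same fit as the difference of the 2 differences. It was called for 528 genes (3.55% of those tested), 221 with a higher and 307 with a lower value after NKG2D, and 2712 genes had an unadjusted p under 0.05. The spread between libraries was larger in primed cells, with a biological coefficient of variation of 0.316 against 0.218 after NKG2D. Of the genes that fell after NKG2D, 496 also fell in primed cells (8.52% of all genes did) and 15 rose there. Of those that rose, 436 also rose in primed cells (7% of all genes did) and 15 fell.

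Ribosome biogenesis was the list with the most members in this class: 24 of 52 had a lower difference after NKG2D, as 2.07% of all genes did, and none a higher one (1.49% of all genes). In primed cells its median was 0.04, with 3 members higher and 1 lower, against -0.76 after NKG2D. Nop56, a core protein of box C/D particles, rose by 0.58 in primed knock-out cells (adjusted p = 0.000782) and fell by 0.47 after NKG2D, a difference of -1.05 (adjusted p = 0.000701). The cytosolic ribosomal proteins had medians of -0.37 in primed cells and -0.45 after NKG2D, and none of the 78 had a called difference between them. Hspa5 was level in primed cells at 0.05 and Tfrc at -0.01, with differences of -1.04 (adjusted p = 0.000392) and -1.42 (adjusted p = 0.00885). Stat5a (-1.13), Mthfd1 (-1.30), Egr2 (-1.41), Serpinb9 (-1.75) and Eif4e (-0.73) were also called lower after NKG2D, with adjusted p of 0.0144, 0.00182, 0.00099, 0.000997 and 0.00555. Ncr1, the activating receptor whose locus drives the Cre, was higher by 0.64 in primed knock-out cells and lower by 0.74 after NKG2D (-1.38, adjusted p = 0.0012).

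Glycolysis went the other way, with 7 of 21 members higher in this test and none lower. The list's median was -1.28 in primed cells, where 19 of 21 fell, and -0.53 after NKG2D. Tpi1 was lower by 1.66 in primed knock-out cells and by 0.41 after NKG2D (1.24, adjusted p = 0.0119), and Pfkl differed by -1.19 and 0.14 (1.33, adjusted p = 0.0113). Of 12 hypoxia-inducible genes 3 were higher in this test and none lower, with medians of -1.25 and -0.45. Cholesterol synthesis kept its direction, with medians of 0.55 and 0.56, and 3 of its members (Idi1, Hmgcs1 and Hsd17b7) had a smaller difference after NKG2D. Itgam (0.98, adjusted p = 0.0239) and Casp9 (0.99, adjusted p = 0.0114) rose after NKG2D and differed by -0.13 and -0.19 in primed cells. The call of Itgam in this test was lost without wild-type replicate 1 (adjusted p = 0.0526) or 3 (0.0513). Those of Idi1 (adjusted p = 0.109), Hmgcs1 (0.0551) and Hsd17b7 (0.0671) were lost without wild-type replicate 1, and that of Idi1 also without each of the other NKG2D libraries except knock-out replicate 2 (0.0513 to 0.0626).

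**Figure D5:**
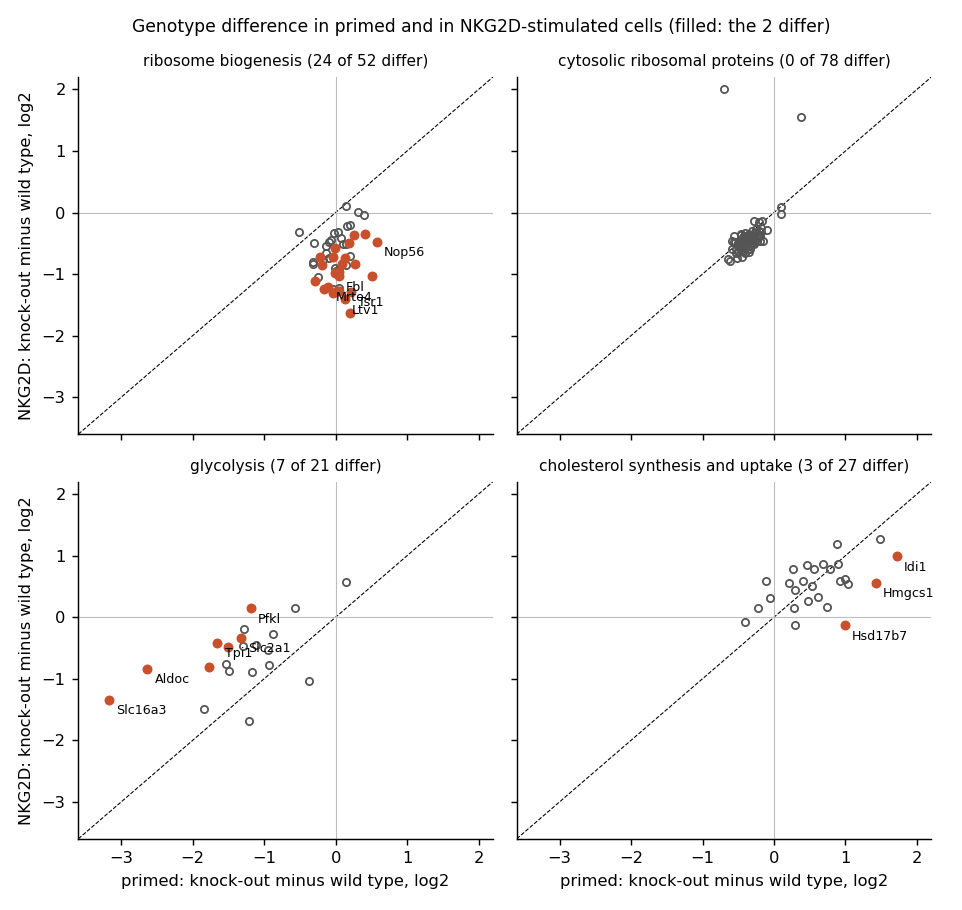
Genotype difference (log2, knock-out minus wild type) in primed cells (horizontal) and after NKG2D (vertical) for the tested members of 4 gene lists; filled points have an adjusted p under 0.05 for the difference between them, and the dashed line marks equal values. Most ribosome biogenesis genes lie below the line, with 24 of 52 filled; ribosomal proteins lie along it, except Rps2 and Rpl13, with 0 of 78 filled; most glycolysis genes lie above it, with 7 of 21 filled.

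Markers of other cells were as follows, and their part in the results was not tested. The summed level of the 10 T cell markers was 477 to 526 CPM in wild-type and 321 to 419 CPM in knock-out cells, most of it Trbc1 and Trbc2. Cd3g, a chain of the T cell receptor complex, read 34.6, 20.6 and 26.4 CPM against 8.72, 10.1 and 12.9 CPM. The 12 myeloid markers summed to 235 to 271 CPM against 365 to 498 CPM, most of it Itgax, which NK cells also express. Cd68 read 46.8, 59.1 and 68.8 CPM against 108.5, 90.2 and 91.6 CPM. The 6 endothelial and stromal markers summed to 214 to 295 CPM against 122 to 156 CPM, nearly all Pecam1, with Cdh5 and Col3a1 at 0. The sums of B cell markers (499 to 587 against 476 to 665 CPM, most of it Ighm) and ILC1 markers (282 to 428 against 368 to 420 CPM) overlapped, though single members were called. Of 6 B cell markers tested 1 rose and 2 fell, and Cd74 read 142, 58.0 and 52.6 CPM against 37.7, 29.0 and 24.4 CPM. Of 5 ILC1 markers 1 fell, Cd200r1, from 25.2, 16.7 and 14.5 CPM to 8.26, 7.25 and 3.83 CPM. Erythroid and platelet markers summed to 3738 to 4396 CPM against 4465 to 5060 CPM without overlap, nearly all Car2, with none of 9 called and Hba-a1 at 0. Mast cell and basophil markers summed to 290 to 459 CPM against 263 to 344 CPM, mostly Kit. In bulk libraries, fewer cells with a transcript and less of it per cell cannot be told apart.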

How the data were processed

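RNA from sorted cells was amplified with the Takara-Clontech SMARTer kit, per the labels' protocols. The authors deposited 1 table of estimated counts per gene for 18 libraries, made with bcl2fastq, DRAGEN and edgeR on mm10, per the submitters' processing notes. No source used here states their roles, versions or annotation. Whole counts had been planned for, so the estimated counts were rounded. The authors' deposited table of this comparison gave log2 fold changes and adjusted p-values, and 18 per-sample columns of that table were not used.

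In R 4.3.3, edgeR 4.0.16 (limma 3.58.1) fitted the quasi-likelihood model to all 18 libraries with 1 mean per group, TMM scaling, the default filter by group (14864 genes) and Benjamini-Hochberg adjustment at 0.05. CPM values use TMM-scaled library sizes, and log2 levels add 0.5 CPM. The standard errors after ± were back-calculated from the test, as the absolute log2 difference over the square root of its F statistic. Coordinates are from GENCODE on GRCm38. No libraries were duplicates by a chi-square comparison. On simulated data the fit called 77 of 100 genes changed by 1 on the log2 scale, and 97 of 100 changed by 2, of 14864 genes. The test of the difference between conditions called fewer, 37 and 80 of 100. The changed genes were drawn from those with an average log2 CPM above 2 over the 18 libraries. DESeq2 1.42.0 was an alternative.

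Genes named were Acly, the 15 largest called rises and 15 largest called falls with a mean log2 level of at least 3 and no overlap, 8 genes each way for the difference between conditions, and members of 53 fixed gene lists and 8 marker lists. Some members are not reported here. The members and lists were chosen with earlier results of these data known.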

Additional observations from a re-analysis of the deposited data

Results flagged for a closer look

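The 15 genes below were singled out because the genotype difference after NKG2D differed from that in primed cells by the edgeR test of the difference itself. Among genes with a mean log2 level of at least 3 over the 12 libraries of both conditions, they are the 8 with the most negative value and 7 of the 8 with the most positive one. Il4i1, below that level at 2.67, had -2.92 (adjusted p = 0.0248), a call lost without knock-out replicate 3 (0.0507), wild-type replicate 1 (0.068) or wild-type replicate 2 (0.0588).

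The first 7 had a higher difference after NKG2D than in primed cells. Bnip3, a mitophagy receptor induced by hypoxia, differed by -2.48 (log2) in primed cells and -0.15 after NKG2D, a change of 2.33 (adjusted p = 0.00111). Slc16a3, the lactate exporter MCT4, differed by -3.17 and -1.34 (1.83, adjusted p = 0.00952), and Aldoc, an aldolase, by -2.64 and -0.83 (1.80, adjusted p = 0.0124). Grhpr, glyoxylate reductase, differed by -2.20 and -0.56 (1.64, adjusted p = 0.0135), and Arrb1, a beta-arrestin, by -2.19 and -0.33 (1.86, adjusted p = 0.00466). Zfp395 differed by -1.20 and 0.61 (1.81, adjusted p = 0.00252) and Fam118a by -1.11 and 0.53 (1.64, adjusted p = 0.0248). The call of Fam118a was lost without knock-out replicate 3 (adjusted p = 0.0532), wild-type replicate 1 (0.0736) or wild-type replicate 2 (0.0568).

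The other 8 had a lower difference after NKG2D than in primed cells. Ccl3 (0.04 in primed cells, -2.42 after NKG2D, a change of -2.46, adjusted p = 0.000392), Ccl4 (-0.12, -2.17, change -2.06, adjusted p = 0.00111) and Xcl1 (-0.23, -2.25, change -2.01, adjusted p = 0.000392) are chemokines. Gzmb changed by -2.28, from -0.69 to -2.96 (adjusted p = 0.00072). Cd83, an activation marker, went from 0.75 to -1.78 (-2.53, adjusted p = 0.00138) and Mettl1, a tRNA methylase, from 0.38 to -1.60 (-1.98, adjusted p = 0.000392). Fos, of AP-1, was 2.38 higher in primed knock-out cells and uncalled after NKG2D at -0.51, with 1.11, 2.38 and 1.83 CPM in wild-type and 1.51, 1.17 and 0.938 CPM in knock-out libraries (-2.89, adjusted p = 0.00096). Cx3cr1, the fractalkine receptor, was 2.79 higher in primed knock-out than in primed wild-type cells and uncalled after NKG2D at 0.62 (-2.17, adjusted p = 0.0297). The call of that change was lost without knock-out replicate 3 (0.0654), without wild-type replicate 1 (0.0811) and with the replicate block (0.0893).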

How the results depend on the processing

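With no scaling factors 2114 genes rose, and limma voom with quality weights called 3245 higher and 3011 lower. A fit of the 6 NKG2D libraries alone called 1090 higher and 1136 lower, and kept 1899 of the 2708 calls. Among the 4 libraries of male pattern after NKG2D, an alternative chosen after seeing the data, 687 rose. Leaving out each NKG2D library in turn gave 746 to 1465 higher and 897 to 1586 lower, with the lowest counts without knock-out replicate 3. Without wild-type replicate 2, 815 rose. The difference between conditions was called for 887 genes with no filter, 967 with DESeq2, 2114 with limma voom, 203 with only the 12 libraries of both conditions, 263 in the male-pattern libraries, and 242 to 598 leaving out each NKG2D library in turn (242, 265 and 292 without wild-type replicates 1 and 2 and knock-out replicate 3). Fewer samples enter the fits without a library, and other genes pass the filter; the cause of the other changes was not tested. Replicate numbers did not pair the samples (correlations of -0.0105, -0.147 and -0.142), and a replicate block gave 892 higher, 1127 lower and 239 for the difference between conditions, with 36 cytosolic ribosomal protein genes lower in place of 56. No called gene named here changed direction in any setting run. Leaving out 1 of the 6 libraries ended the call of 29 named genes; of these Aldoc, Tnf, Sqle and Lif, with Cd200r1, lost it in 4 of the 6 omissions (edgeR adjusted p up to 0.141, 0.132, 0.114, 0.203 and 0.153), Myc, Nr4a1, Rrm2 and Cd74 in 3 (up to 0.195, 0.084, 0.0823 and 0.149), Cxcr3, Gzmf, Gzmg, Klrc1 and Nt5e in 2, and Acss2 and Relb in 1. Of 256 gene results followed, 177 kept their side of the threshold in every setting; those that lost the call most often were Cdkn1b, Zfp395, H2ax, Dut, Maf1, Fam177a, Stub1, Mcm6, Aldoc and Myc, and Idi1 for the difference between conditions. With only the 12 libraries of both conditions the differences of Itgam (adjusted p = 0.0635), Casp9 (0.0567), Stat5a (0.0569), Tpi1 (0.0561), Hmgcs1 (0.0635), Hsd17b7 (0.0561), Idi1 (0.0752), Grhpr (0.0509) and Fam118a (0.0711) were not called, and with the replicate block those of Tfrc (0.0542), Idi1 (0.0982) and Cx3cr1 were not. Primed knock-out replicate 1 had the fewest counts (14772300) and the fewest genes with a count (14695) of the 18 libraries. The other primed libraries had 17877 to 18783 such genes. Without that library, 1706 rose and 1650 fell after NKG2D, with 15317 genes tested in place of 14864. The difference between conditions was then called for 541 genes, against 528 with it. These were not all the same genes, as the call of Idi1 was lost (adjusted p = 0.0573). Errors were wide for genes near 1 CPM (Gzmf, Gzmg, Lif, Abca1). They were also wide for better expressed genes split by knock-out replicate 1, such as H2ax (± 0.94), Dut (± 0.82) and Maf1 (± 0.73).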
